A study of Caenorhabditis elegans with 5 samples.

Results

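The regions described here are 1 kb windows of the C. elegans genome whose trimethylation of histone H3 at lysine 9 (H3K9me3) was marked by the authors as lost in both ChIP-seq replicates of the met-2 set-25 double mutant, but not in both replicates of the set-32 mutant. Windows listed as native germline nuclear RNAi targets, or as misannotated, were left out. Of 100270 windows in the table, 2677 carried the met-2 set-25 mark in both replicates. Of these, 727 also carried the set-32 mark in both replicates and 76 of the rest were nuclear RNAi targets or misannotated, which left 1874 member windows, or 1.88% of the 99764 windows not listed as misannotated. The marks rest on a loss of H3K9me3 of at least 2-fold and come from ChIP-seq, so the transcript levels below were not used to choose the members.

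Nascent RNA was measured by pre-mRNA-seq, in which RNA is isolated from fragmented chromatin after immunoprecipitation of the elongating form of Pol II (its C-terminal repeat phosphorylated at serine 2). The 5 genotypes had 1 library each, all from whole animals at the young adult stage, fed OP50 and kept at 19 °C. They were the wild type N2 (WT), set-32(ok1457), hrde-1(tm1200), the double mutant met-2(n4256);set-25(ok5021), and the triple mutant, which joined the met-2 and set-25 alleles of the double mutant to set-32(ok1457). Each mutant was a single strain that carried its alleles in all tissues, so germline and somatic effects cannot be told apart, nor can fewer cells of a type and less RNA per cell.

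H3K9me3 is a histone modification of heterochromatin, which in C. elegans is concentrated on the arms of the autosomes and on repeated sequence. MET-2 is a SETDB1-like histone methyltransferase needed for mono- and dimethylation of H3K9, and SET-25 is a methyltransferase that adds the trimethyl state. SET-32 is another SET-domain protein needed for H3K9me3 at targets of germline nuclear RNAi, the pathway in which the Argonaute HRDE-1 carries small RNAs into germline nuclei and silences the matching loci.

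The values are RPKM, reads per kilobase of window scaled to the depth of the library, and since every window is 1 kb they can be compared between windows. The value of a single read lay between 0.912 RPKM in the WT library and 3.09 RPKM in the triple mutant library, which corresponds to 1096264 and 323650 recovered reads. The libraries of WT, hrde-1 and met-2 set-25 carry codes of one library set, and those of set-32 and the triple mutant codes of another. The rRNA genes took from 4.64% to 8.90% of the reads in the first set, and 27.8% and 37.3% in the second, which lowers all other values there. Comparisons were therefore made within a set: hrde-1 and met-2 set-25 were each set beside WT, and the triple mutant beside set-32. The comparisons met-2 set-25 / WT and triple mutant / set-32 share no library. The 191 windows of the GRTS list, targets silenced by nuclear RNAi, check the hrde-1 label: 185 were above WT in the hrde-1 library and 44 in the met-2 set-25 library. Because no genotype was sequenced in replicate, differences have no replicate check and no p-value is given. Intervals given below are 95% intervals for counting error only, and copies made by PCR are not independent molecules. Windows are not replicates of a genotype.

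The member windows were those that lose H3K9me3 without MET-2 and SET-25, and most were also marked in the triple mutant. The triple mutant mark was present in both replicates for 1655 members (88.3%), in 1 replicate for 182 and in neither for 37. In the set-32 mutant 483 members (25.8%) were marked in 1 replicate and 1391 in none. Members were crowded in the first tiers of H3K9me3, a score from 1 to 8 that the table gives without a definition: 25 members were in tier 1, 449 in tier 2, 1285 in tier 3 and 115 in tier 4. They made up 50.4% of the kept windows of tier 2, 31.8% of tier 3 and 0.559% of tier 4, and no member lay in tiers 5 to 8.

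Members were transcribed at low but measurable levels in the wild type, close to the rest of the genome. In WT the median member value was 2.18 RPKM, against 1.82 RPKM over all kept windows, and the mean was 10.8 RPKM (95% interval 10.7 to 11). No read fell in 31.2% of members in WT, and 38.4% were at 5 RPKM or more, compared with 30.3% and 35.1% of the kept windows. In the other libraries the median member value was 1.73 RPKM in met-2 set-25, 1.54 in hrde-1, 1.80 in set-32 and 1.03 in the triple mutant. Over the same libraries the median of all kept windows was 2.98, 1.47, 1.80 and 0.34 RPKM. The met-2 set-25 library was thus the 1 library in which members lay below the genome at the median. A single read was worth 1.49 RPKM in that library, so these medians stand near the counting floor.

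A minority of the members carried most of the signal. In all 5 libraries together 358 members (19.1%) had no read, compared with 15.7% of kept windows, whereas 245 members had a mean of at least 20 RPKM and 18 a mean of at least 100 RPKM. The 100 highest members held from 41.7% (WT) to 50.0% (triple mutant) of the summed member signal. As a whole, members took 2.03% of all reads in WT, 1.84% in met-2 set-25, 2.00% in hrde-1, 1.82% in set-32 and 1.42% in the triple mutant. Once the rRNA genes are left out of the totals these shares were 2.12%, 1.95%, 2.20%, 2.52% and 2.26%, so the order of the libraries depends on the rRNA.

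**Figure D1:**
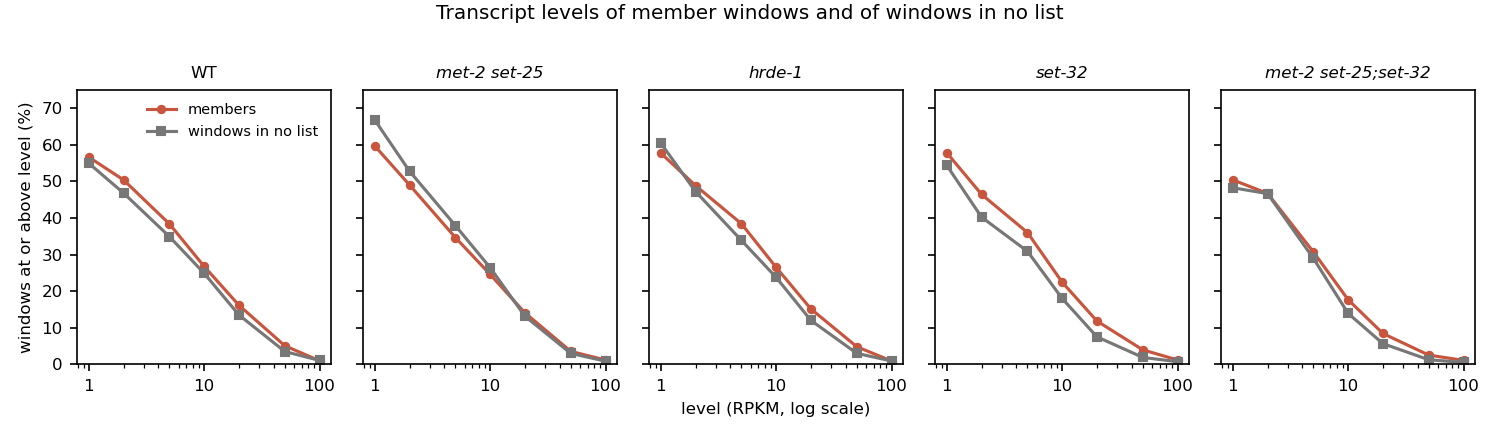
Share of windows (%) at or above a level (RPKM, log scale) in each of the 5 libraries, for the 1874 members (circles) and the 94865 windows with no mark in any replicate and in no target list (squares). At 5 RPKM members stood above the unlisted windows in WT (38.4% and 34.9%) and below them in met-2 set-25 (34.6% and 37.9%).

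The 5 members of highest mean were transcribed in every genotype. The window chrII:1147001-1148000 (ce6) had 394 RPKM in WT, 301 in met-2 set-25, 348 in hrde-1, 525 in set-32 and 213 in the triple mutant. The window chrV:19050001-19051000 had 343, 421, 346, 214 and 185 RPKM in the same order of libraries. For chrI:14859001-14860000 the values were 164, 260, 321, 287 and 287 RPKM, lowest in WT. The others were chrIV:1460001-1461000 (236, 194, 329, 343 and 179 RPKM) and chrII:10707001-10708000 (224, 196, 293, 316 and 232 RPKM). The authors divided reads shared with other places in the genome among those places. None of the 5 was a whole-read window, with recovered reads within 0.02 of a whole number in all libraries. At high counts, however, a small error in the read worth exceeds that tolerance. The window chrII:1147001-1148000 had 431.953 recovered reads in WT and 201.963 in met-2 set-25, near whole numbers. In contrast, chrII:10707001-10708000 had 131.475 in met-2 set-25, as divided reads would give. By this tolerance 1088 members (58.1%) were whole-read windows, zeros included, compared with 79.6% of kept windows.

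Loss of MET-2 and SET-25 was accompanied by a slightly lower, not higher, sum of nascent RNA over the members, though not on every chromosome. Summed over all 1874, the met-2 set-25 level was 0.907 times that of WT (95% interval 0.887 to 0.927), compared with 0.994 times for the 94865 unlisted windows. The member sum was 0.704 times WT on II, 0.853 on IV and 0.861 on III. On I it was 0.997, on V 1.02 (0.977 to 1.07) and on X 1.05 (0.957 to 1.15). The median ratio, after 1 RPKM was added to each value, was 1.00 for members and for all kept windows alike, since most had few reads. Among the 675 members with at least 5 RPKM in the set-32 library, which takes no part in this comparison, the median ratio was 0.836, with 243 above 1 and 431 below. The corresponding median was 0.982 over 29293 unlisted windows, and 0.906 over the 178 unlisted windows of tiers 1 to 3. Windows marked in both set-32 replicates stood lower still, at 0.704 (309 windows, rRNA genes left out). The member median was 0.836 as well among whole-read windows and among the rest. By chromosome the member median at this level ran from 0.664 on II to 0.971 on I.

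Few single members changed much in met-2 set-25. A window was called higher or lower where the ratio after adding 1 RPKM was at least 2-fold and the larger value at least 20 RPKM. By this rule 20 members (1.07%) were called higher, against a background of 1.19% of all kept windows, and 44 (2.35%) were called lower, against 1.26%. Of members with at least 5 RPKM in set-32, 16 (2.37%) were called higher and 42 (6.22%) lower, with backgrounds of 3.14% and 3.91%. The share of members called higher was thus near or below that of the genome, and the share called lower was above it. The lower calls were not particular to members. At the same level 2.81% of unlisted windows of tiers 1 to 3 were called higher and 7.30% lower. For windows marked in both triple mutant replicates alone the shares were 3.17% and 7.24%. For windows marked in both set-32 replicates, rRNA genes left out, they were 0.971% and 12.9%.

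The members called lower in met-2 set-25 by the widest margin lay close together on the left arm of chromosome II. The adjacent windows chrII:1939001-1941000 averaged 57.0 RPKM in WT, 16.4 in met-2 set-25, 99.5 in hrde-1, 21.6 in set-32 and 7.72 in the triple mutant. That is 0.288 times WT in met-2 set-25 (95% interval 0.174 to 0.456). The adjacent windows chrII:1934001-1936000, 3 kb away, averaged 43.4, 8.39, 52.7, 18.6 and 5.16 RPKM in the same order, or 0.194 times WT in met-2 set-25 (0.0915 to 0.355). In both places the triple mutant and the double mutant were low beside WT and hrde-1. Averaged over each pair, the set-32 level lay between them, but the single windows of the second pair differed. At chrII:1934001-1935000 set-32 had 27.0 RPKM, close to the 30.1 RPKM of WT. At chrII:1935001-1936000 set-32 had 10.3 RPKM and WT 56.6. There set-32 was as low as the double mutant (12.3 RPKM) and the triple mutant (10.3 RPKM). On another chromosome, chrIII:1919001-1920000 had 23.7 RPKM in WT and 4.48 in met-2 set-25, which is 3 reads (0.189 times, 0.0366 to 0.616).

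The members called higher by the widest margin in met-2 set-25 lay mostly on the right arm of chromosome V. The adjacent windows chrV:20509001-20511000 averaged 4.26 RPKM in WT, 27.4 in met-2 set-25, 19.9 in hrde-1, 7.79 in set-32 and 10.1 in the triple mutant, a ratio of 6.42 to WT (95% interval 3.19 to 15.9). At chrV:20157001-20158000 the values were 16.4, 71.6, 38.3, 21.6 and 3.09 RPKM, a ratio of 4.36 (2.49 to 7.97). The window chrV:19205001-19206000 had 2.74 RPKM in WT (3 reads) and 23.9 in met-2 set-25, a ratio of 8.72 (2.50 to 46.7). These levels were low in WT, and each ratio rests on few reads.

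The triple mutant compared with set-32 shows loss of MET-2 and SET-25 where SET-32 is already absent, in other libraries. The summed member level was 0.780 times that of set-32 (95% interval 0.753 to 0.808), compared with 0.875 times for the unlisted windows. At 5 RPKM or more in WT, which takes no part here, 719 members had a median ratio of 0.756, with 245 above 1 and 472 below. The median was 0.792 for 33106 unlisted windows, 0.826 for the 218 of tiers 1 to 3, and 0.582 for 313 windows marked in both set-32 replicates. By the 2-fold rule 11 members (0.587%) were called higher, with a background of 0.745%, and 72 (3.84%) lower, with a background of 2.51%. Among the 719 members above that level in WT the calls were 1.53% and 10.0%, with backgrounds of 1.98% and 7.1%. Unlisted windows were lower too, beside the larger rRNA share of the triple mutant library, whose part in the result was not tested. With the triple mutant library scaled so that the median ratio was 1 over unlisted windows whose mean reached 5 RPKM, 30 members (1.60%) were called higher and 52 (2.77%) lower, against backgrounds of 1.74% and 1.67%. On that scale the median at 5 RPKM or more in WT was 0.902 for members and 0.954 for unlisted windows.

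**Figure D2:**
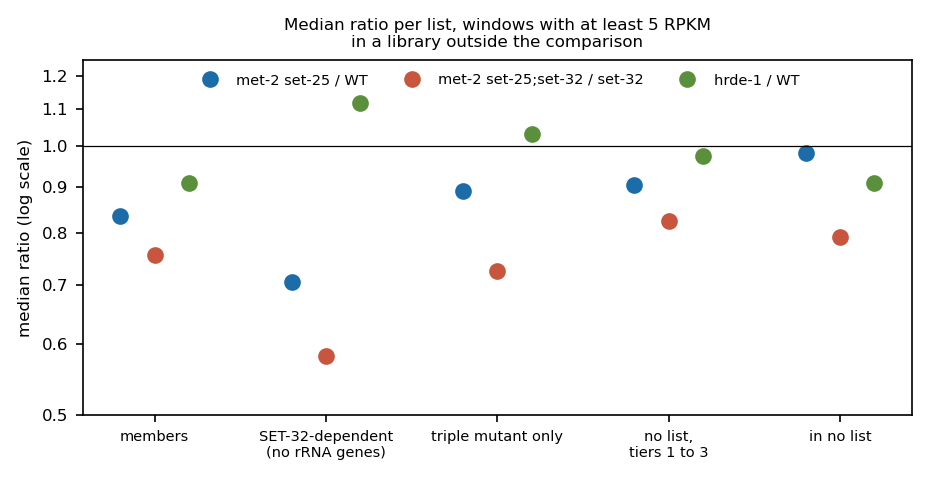
Median ratio (log scale) for windows with at least 5 RPKM in a library outside the comparison, for members, windows marked in both set-32 replicates, windows marked in both triple mutant replicates alone, unlisted windows of tiers 1 to 3, and all unlisted windows, as deposited. Members had medians of 0.836 (met-2 set-25 / WT), 0.756 (triple mutant / set-32) and 0.909 (hrde-1 / WT), and unlisted windows 0.982, 0.792 and 0.910.

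Named members of this comparison covered several chromosomes. The largest fold above set-32 with ample reads was at chrX:59001-60000, with 158 RPKM in set-32 and 693 in the triple mutant (4.38 times, 95% interval 3.41 to 5.67), the latter being the highest value of any member in any library. The same window had 95.9 RPKM in WT, 176 in met-2 set-25 and 102 in hrde-1. It was not a whole-read window. Its recovered reads were 224.41 in the triple mutant and 117.63 in met-2 set-25, as divided reads would give. The window chrII:14665001-14666000 had 14.4 RPKM in set-32 and 40.2 in the triple mutant (2.79 times, 1.07 to 7.78). In the lower direction, chrV:1699001-1700000 had 89.8 RPKM in set-32 and 9.26 in the triple mutant (0.103 times, 0.0206 to 0.319), with 16.9 in WT and 70.0 in hrde-1. The windows chrII:1934001-1935000 and chrII:2278001-2279000 both had 27.0 RPKM in set-32 and no read in the triple mutant, which is at least 2.91-fold lower against 3 reads. The triple mutant library is shallow, and 20 RPKM there is 6.47 reads, compared with 21.9 reads in WT.

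Members called lower in both of these comparisons, which share no library, were few and mostly on the left arm of chromosome II. The overlap was 11 windows, or 25% of the 44 lower in met-2 set-25 and 15.3% of the 72 lower in the triple mutant. Over all kept windows the overlap was 261, or 20.8% and 10.4% of the lists, so the member shares lay near those of the genome. No member was called higher in both (20 and 11 windows), while 126 kept windows were (10.6% and 17.0%). Of the 11 members, 6 lay on the left arm of II, between chrII:1769001-1770000 and chrII:2291001-2292000. The latter had 93.0 RPKM in WT, 84.0 in hrde-1 and 84.5 in set-32, against 25.4 for met-2 set-25 and 18.5 for the triple mutant, so it was high in the 3 libraries with intact MET-2 and SET-25 and low in both libraries without. The same order held at chrI:6352001-6353000, with 51.1 RPKM in WT, 16.4 in met-2 set-25, 41.3 in hrde-1, 62.9 in set-32 and 15.4 in the triple mutant. At chrIV:1983001-1984000 hrde-1 was also below WT (65.2, 29.1, 32.9, 45.8 and 15.4 RPKM in the order just given). The same was true of chrIV:2492001-2493000, with 47.4, 11.9, 26.5, 25.2 and 9.26 RPKM.

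Members were spread unevenly over the chromosomes. Chromosome V held 836 (44.6%), I 308, II 278, IV 158, and III and X 147 each. On the autosomes, where arms were taken as the outer 30% on either side, 571 lay on left arms, 1092 on right arms and 64 in the centres. The right arm of V alone held 757 members, which was 12.2% of its windows. Levels went the other way. The median WT value was 16.3 RPKM in the centres, 5.02 on left arms, 0.91 on right arms and 0 on the right arm of V, where 35.9% of members had no read in any library. On chromosomes I to IV and X members had higher WT medians than unlisted windows of the same chromosome (for example 9.34 and 1.82 RPKM on IV), and on V a lower one (0.15 and 0.91 RPKM).

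Chromosome II had the lowest member sums of all chromosomes in both comparisons, at 0.704 times WT in met-2 set-25 (95% interval 0.669 to 0.741) and 0.624 times set-32 in the triple mutant (0.575 to 0.676). On its left arm the 232 members summed to 0.713 times WT in met-2 set-25 (0.667 to 0.762), and the unlisted windows of the same arm to 1.01 times. In the triple mutant they summed to 0.534 times set-32 (0.479 to 0.596), and the unlisted windows to 0.832 times. In met-2 set-25, 13 of the 232 (5.60%) were called lower, compared with 0.779% of the unlisted windows of the arm. In the triple mutant 21 (9.05%) were, compared with 1.16%. These shares are not matched for level, since the WT median was 2.74 RPKM for members and 1.37 for unlisted windows. With at least 5 RPKM in the outside library, the member medians were 0.593 (76 windows) and 0.499 (83 windows). The unlisted medians of the arm at this level were 0.959 and 0.778. Without a stretch of 20 kb around the windows at chrII:1934001-1941000, chosen after the values were seen, the sums were 0.759 (0.709 to 0.812) and 0.540 (0.482 to 0.603). In hrde-1 the members of this arm summed to 1.00 times WT (0.942 to 1.06). The arm was singled out after its values were seen.

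Members elsewhere varied. On the right arm of II, 41 members summed to 0.689 times WT in met-2 set-25 (0.635 to 0.748) and 0.759 times set-32 in the triple mutant. The unlisted windows of that arm summed to 0.945 and 0.925. On chromosome I the 308 members summed to 0.997 (0.957 to 1.04) and 0.835 (0.783 to 0.889), and its unlisted windows to 0.960 and 0.880. On the right arm of V the met-2 set-25 sum was above WT, at 1.11 (1.05 to 1.17) compared with 1.03 for unlisted windows of the arm. The triple mutant sum there was 0.749 times set-32 (0.677 to 0.827), compared with 0.937 for unlisted windows. The 2 comparisons thus went in opposite directions on this arm, also beside its unlisted windows. On X the triple mutant sum was 1.45 times set-32 (1.28 to 1.65), but it rested on chrX:59001-60000, which was not a whole-read window. Without that window the sum was 0.889 (0.757 to 1.04).

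**Figure D3:**
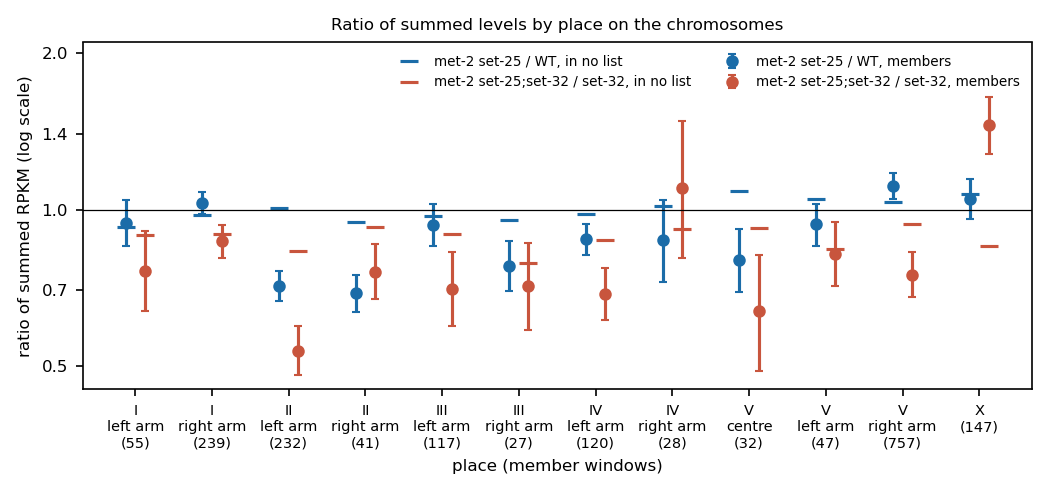
Ratio of summed RPKM (log scale) by place, for places with at least 20 members (number of members in parentheses). Circles are members with 95% counting intervals and dashes are unlisted windows of the same place, for met-2 set-25 / WT (blue) and triple mutant / set-32 (red). The left arm of II had the lowest triple mutant value (0.534), and X was the highest (1.45) through 1 window.

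By tier, the median WT level of members was highest in tier 4 and the mean was highest in tier 1 (29.0 RPKM, compared with 28.3 in tier 4). The 115 members of tier 4 had a WT median of 20.1 RPKM and none was at 0 in all libraries, compared with 6.23 RPKM in tier 1, 0.91 in tier 2 and 1.82 in tier 3. Unlisted windows of tier 4 had a WT median of 0.91 RPKM, so members of that tier stood well above them. The met-2 set-25 sums were 0.843 times WT in tier 1 (0.746 to 0.951), 0.853 in tier 2 (0.813 to 0.895), 0.927 in tier 3 (0.90 to 0.954) and 0.923 in tier 4 (0.874 to 0.975). In all tiers with members the sum was therefore below WT. The hrde-1 sums were 0.932 times WT in tier 1 (0.829 to 1.05), 1.12 times WT in tier 2 (1.07 to 1.17), 1.01 in tier 3 and 0.764 in tier 4 (0.721 to 0.810). In tier 4, 12 members (10.4%) were called lower in hrde-1 and 1 (0.870%) higher, compared with 0.806% and 0.625% of the unlisted windows of that tier and the backgrounds of 1.1% and 0.749%. These shares are not matched for level: 65 of the 115 members reached the 20 RPKM that a call needs. The unlisted windows had medians of only 0.91 RPKM in WT and 1.15 in hrde-1. At 5 RPKM or more in set-32 the median hrde-1 ratio was 0.787 for 92 members and 0.924 for unlisted windows of the tier.

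Members mostly stood alone or in short runs. The 1874 windows formed 957 runs of adjacent members, of which 532 were single windows, 217 were 3 kb or longer and 7 were 10 kb or longer. The longest were 14 kb. The met-2 set-25 sum was 0.931 times WT for single windows (0.892 to 0.971), 0.999 for runs of 2, 0.922 for 3 to 4, 0.857 for 5 to 9 (0.805 to 0.912) and 0.730 for 10 or more (0.685 to 0.780). The triple mutant sums did not fall in the same order, at 0.692, 0.811, 0.943, 0.746 and 0.677 times set-32. The value for runs of 10 or more rested on 7 runs, of which 3 carried nearly all the reads.

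Those 7 runs fell into transcribed and nearly silent ones. The run chrII:14322001-14333000 averaged 104 RPKM in WT, 59.8 in met-2 set-25, 88.1 in hrde-1, 82.4 in set-32 and 60.6 in the triple mutant. None of its 11 windows was a whole-read window. The met-2 set-25 ratio was 0.572 (0.512 to 0.638). The run chrII:2276001-2290000 averaged 39.7, 26.1, 35.4, 38.3 and 15.7 RPKM, ratios of 0.658 (0.565 to 0.765) and 0.411 (0.312 to 0.532). Both runs on II were thus lower in each mutant lacking MET-2 and SET-25. The run chrI:14880001-14894000, near the right end of I, averaged 71.1, 67.4, 63.4, 111 and 81.8 RPKM, with 0.948 times WT in met-2 set-25 (0.858 to 1.05). The 4 runs on the right arm of V had at most 3.0 RPKM in any library, and chrV:17002001-17013000 had 0.165 RPKM in WT and no read elsewhere.

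Ratios were lower 2 to 4 kb inside the runs than anywhere in their flanks, in both comparisons without MET-2 and SET-25. Levels were followed from 5 kb outside to 5 kb inside the edges of the 217 runs of 3 kb or more, with marked or listed windows outside left out. In WT the mean was 9.05 RPKM in the first 1 kb outside and 10.5 RPKM in the first inside. The met-2 set-25 ratio to WT lay between 0.878 and 1.00 outside, and was 0.920, 0.787, 0.821 and 0.830 at 1 to 4 kb inside. The triple mutant ratio to set-32 lay between 0.829 and 1.2 outside, and was 0.909, 0.80, 0.737 and 0.732 inside. The hrde-1 ratio was from 0.833 to 0.963 outside and 1.03, 0.890, 0.762 and 0.970 inside. The windows fell from 434 at 1 kb inside to 94 at 3 kb and 35 at 4 kb, where only the longer runs contribute. The WT mean rose from 9.92 RPKM at 3 kb inside to 22.9 at 4 kb. These ratios of means have no interval and are weighted to the most transcribed runs, so they do not describe all 217 runs alike. At 5 kb inside only 16 windows remained.

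**Figure D4:**
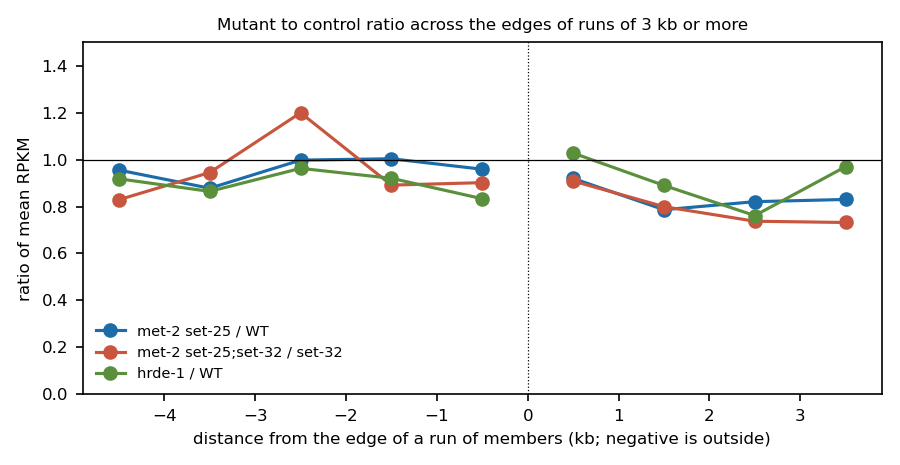
Ratio of mean RPKM by distance (kb) from the edge of runs of 3 kb or more, outside (negative) and inside (positive), for 3 comparisons; the bin at 5 kb inside, with 16 windows, is not drawn. Inside, from 434 windows at the edge to 35 at 4 kb, the met-2 set-25 ratio went from 0.920 to 0.830 and the triple mutant ratio from 0.909 to 0.732.

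In the hrde-1 mutant, which carries intact methyltransferase genes, the shares of members called higher and called lower were above those of all kept windows and below those of windows marked in both set-32 replicates. Their sum was 0.989 times WT (95% interval 0.968 to 1.01), compared with 0.936 for unlisted windows, and at 5 RPKM or more in set-32 the medians were 0.909 for members and 0.910 for unlisted windows. By the 2-fold rule 42 members (2.24%) were called higher, with a background of 0.749%, and 43 (2.29%) lower, with a background of 1.1%. At 5 RPKM or more in set-32, 33 (4.89%) and 39 (5.78%) of 675 were called, with backgrounds of 1.97% and 3.35%. Of the 604 windows outside the target lists that were marked in both set-32 replicates, 65 (10.8%) were called higher and 21 (3.48%) lower. These 604 include the 12 windows of the rRNA genes, whose share of reads was 4.64% in WT and 8.90% in hrde-1. Scaled to unlisted windows, the member sum in hrde-1 was 1.08 times WT, with 55 members (2.93%) higher and 37 (1.97%) lower against backgrounds of 1.08% and 0.799%. Among the 680 members with a mean of at least 5 RPKM, hrde-1 was the highest library of its set in 35.0%, WT in 39.1% and met-2 set-25 in 25.9%. For unlisted windows these shares were 24.2%, 36.7% and 39.1%.

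Members called higher in hrde-1 were often close to nuclear RNAi targets. Of the 42, 21 were within 5 kb of a window of the GRTS list or of the GRH list (targets whose H3K9me3 depends on nuclear RNAi), 10 of them within 1 kb, while none of the 43 called lower was. Only 125 members (6.67%) lay so close. These 125 summed to 1.53 times WT in hrde-1 (1.43 to 1.63), and the 1749 members further away to 0.939 times (0.917 to 0.960). Without the close ones, 21 members (1.20%) were called higher and 43 lower. Unlisted windows behaved alike in direction, with 3.81% of the 945 close ones called higher and 0.429% of the others. The distance was chosen after the values were seen. Both target lists came from earlier hrde-1 work of the authors. Shared reads moved with the same calls: 33 of the 42 were not whole-read windows, which is 4.20% of such members and 0.827% of whole-read members. Of whole-read members 32.9% had no read in any library and could not be called. Among members with at least 20 RPKM in WT or hrde-1, 33 of 205 and 9 of 161 were called higher. Some windows with many reads also miss the whole-read tolerance. The part of shared reads in the result was not tested.

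In met-2 set-25 the same 125 members were below WT. They summed to 0.692 times WT (0.636 to 0.752), compared with 0.927 (0.906 to 0.948) for members further away, and 6 (4.80%) were called lower and none higher, compared with 2.75% and 0.847% of unlisted windows as close and with backgrounds of 1.26% and 1.19%. In the triple mutant they summed to 0.620 times set-32 (0.537 to 0.713), compared with 0.793 (0.764 to 0.822). Members beside nuclear RNAi targets were thus higher without HRDE-1 and lower without MET-2 and SET-25. Unlisted windows within 5 kb of a target had a met-2 set-25 sum of 0.796 times WT (0.774 to 0.818), and those further away 0.998.

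**Figure D5:**
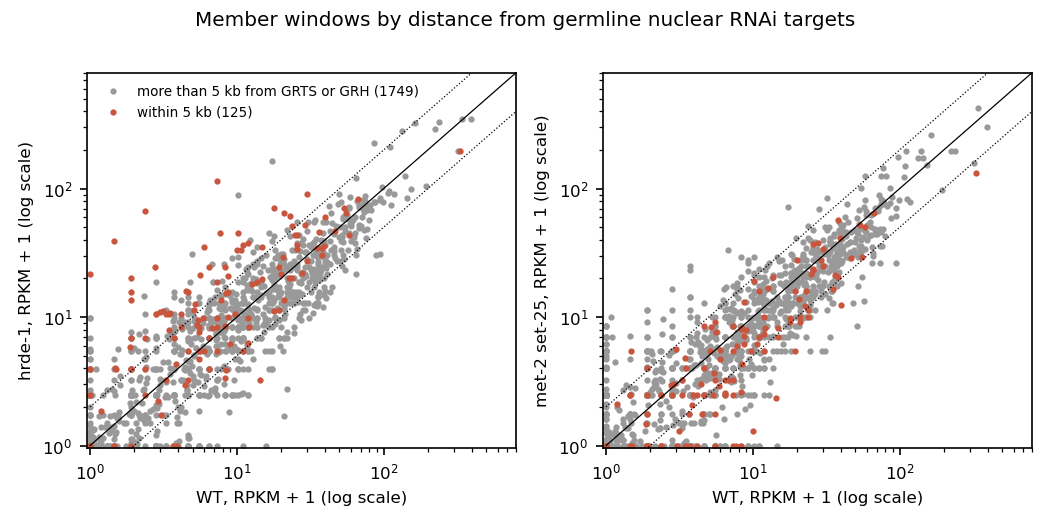
Level of each member (RPKM + 1, log scale) in hrde-1 (left) and met-2 set-25 (right) against WT, with the 125 members within 5 kb of a GRTS or GRH window and the 1749 others; the solid line is equality and dotted lines are 2-fold. In hrde-1, 21 close members were called higher and none lower, and in met-2 set-25 none higher and 6 lower.

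A single case of a high hrde-1 level beside a target was the run chrV:20302001-20305000, whose edge lay 1 kb from that target. It averaged 2.74 RPKM in WT, 1.74 in met-2 set-25, 72.7 in hrde-1 and 2.69 in set-32, with no read in the triple mutant. The hrde-1 level was thus 26.6 times WT (13.6 to 59.3). None of its 3 windows was a whole-read window. In hrde-1, chrV:20302001-20303000 had 77.48 recovered reads and chrV:20303001-20304000 had 44.49, as divided reads would give. At chrV:18444001-18445000, 3 kb from a target, hrde-1 had 20.6 RPKM, and WT had no read, which makes hrde-1 at least 7.54-fold higher against 3 reads. A window far from any target was also high in hrde-1: chrI:13853001-13854000 had 164 RPKM there, compared with 16.4 in WT, 7.46 in met-2 set-25, 21.6 in set-32 and 6.18 in the triple mutant (9.96 times WT, 6.02 to 17.4). The members called lower in hrde-1 by the widest margin were at the left end of X, and neither was a whole-read window. At chrX:55001-56000 the values were 20.1 RPKM in WT, 9.26 in met-2 set-25, 0.70 in hrde-1, 10.7 in set-32 and 10.1 in the triple mutant. At chrX:52001-53000 they were 20.9, 8.76, 1.75, 4.49 and 12.4 RPKM. The hrde-1 values stood for 0.475 and 1.19 recovered reads, at the counting floor.

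Members with a set-32 mark in 1 replicate stood apart in hrde-1. The 483 with the mark summed to 1.2 times WT in hrde-1 (1.15 to 1.25), with 18 (3.73%) called higher and 3 (0.621%) lower, and the 1391 without it to 0.928 (0.906 to 0.952), with 40 (2.88%) lower and 24 (1.73%) higher. The backgrounds were 0.749% for higher and 1.1% for lower. In met-2 set-25 the sums were 0.926 (0.884 to 0.970) and 0.901 (0.879 to 0.924), with overlapping intervals.

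Values of the set-32 and triple mutant libraries against WT cross the library sets, so genotype and set cannot be told apart. In set-32 the member sum was 0.898 times WT, compared with 0.742 for unlisted windows, with 19 members (1.01%) called higher and 56 (2.99%) lower against backgrounds of 0.402% and 4.27%. Scaled to unlisted windows the set-32 sum was 1.31 times WT and the calls turned to 77 (4.11%) higher and 31 (1.65%) lower against backgrounds of 1.73% and 1.54%, the opposite direction. In the triple mutant the sum was 0.700 times WT, compared with 0.650 for unlisted windows, with 16 members (0.854%) called higher and 133 (7.10%) lower against 0.681% and 8.06%, and scaled to unlisted windows the sum was 1.27 times WT, with 96 (5.12%) higher and 53 (2.83%) lower against backgrounds of 3.68% and 3.44%.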

How the data were processed

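Pre-mRNA-seq of 5 genotypes, 1 library each, was analysed from a table of RPKM values that the authors deposited per 1 kb window of the ce6 (WS190) genome. According to the study's methods they aligned reads with Bowtie 0.12.7, kept perfect alignments, counted a read matching N places as 1/N at each and scaled by depth. The tier score and the H3K9me3 marks were deposited by the authors in the same table. The mark codes were read as met-2 set-25, set-32 and triple mutant by the number of windows marked in both replicates (2677, 816 and 3290), and library codes were matched to genotypes through the study's library list. The table held 0 value columns of other samples.

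Python 3.11.15 with pandas 2.3.3 and scipy 1.17.1 was used. The read worth was the step that made most low values whole multiples (within 0.02 of a read; from 77.8% to 79.6% of positive values). Sums have exact Clopper-Pearson intervals on recovered reads. The calling script was tested on simulated data. Windows named were up to 6 highest and 6 lowest called members per within-set comparison, up to 10 called alike in both comparisons without a shared library, the 5 of highest mean and the 5 longest runs (7 with ties in length). The values in sensitivity settings used pseudocounts of 0.1 and 5 RPKM, level minimums and rescaling. Members and lists were chosen with earlier results of these data known. Gene names and sequences were not used here, since no ce6 annotation or genome was at hand, so the mutated genes were not checked.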

Additional observations from a re-analysis of the deposited data

Results flagged for a closer look

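The window chrV:20157001-20158000 was called in opposite directions in the 2 comparisons that remove MET-2 and SET-25 and share no library. It had 16.4 RPKM in WT and 71.6 in met-2 set-25 (18 and 48 reads), but 21.6 RPKM in set-32 and 3.09 in the triple mutant (12 reads and 1 read). The 2 log2 ratios, after adding 1 RPKM, differed by 4.52. The difference was not tested, since each genotype had 1 library. It was the only member called in opposite directions.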

How the results depend on the processing

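Values for met-2 set-25 / WT, triple mutant / set-32, hrde-1 / WT, set-32 / WT and triple mutant / WT are given in this order. The median log2 ratio over all members was 0.00 in the first 4 and -0.13 in the last. It was -0.22, -0.40, -0.13, -0.32 and -0.78 for members with a mean of at least 5 RPKM, and -0.26, -0.40, -0.14, -0.27 and -0.78 for those with 5 RPKM in a library outside the comparison. In triple mutant / WT it was 0 after rescaling to unlisted windows, 0 after leaving out the rRNA genes and 0 in whole-read windows.

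When the larger value had to reach 10 RPKM in place of 20, the counts were 39, 39, 75, 35 and 32 called higher and 85, 142, 75, 103 and 222 called lower. In whole-read windows these counts were 11, 3, 9, 5 and 8 higher and 23, 31, 22, 18 and 63 lower, from 1088 windows. A pseudocount of 5 RPKM in met-2 set-25 / WT gave 12 called higher and 22 called lower. Rescaling to unlisted windows gave 30 higher in triple mutant / set-32, 77 higher and 31 lower in set-32 / WT, and 96 higher and 53 lower in triple mutant / WT. Leaving out the rRNA genes gave 23 higher, 55 higher and 35 lower, and 61 higher and 74 lower in the same comparisons. Among members in neither set-32 replicate, 6 were higher in triple mutant / set-32 and 24 in hrde-1 / WT. Members more than 5 kb from a target, a setting chosen after seeing the data, had 21 higher in hrde-1 / WT. The summed ratio changed direction in set-32 / WT (1.31 and 1.19) and in triple mutant / WT (1.27 and 1.06) under the 2 rescalings. The causes were not tested beyond the smaller number of windows in the restricted sets.

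No paired analysis was possible because each genotype had 1 library, and no replicate was left out for the same reason. A single read was worth 3.09 RPKM in the triple mutant; 20 RPKM there was 6.47 reads, and a 2-fold difference at lower levels was not detectable at this depth.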
